A study of Mus musculus with 10 samples.

Results

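Osteocrin, encoded by Ostn, its receptor and the ligand and receptors of the signal that it modulates were followed in MC3T3 cells, a mouse calvarial pre-osteoblast line, during osteogenic culture with or without inhibition of EZH2. The set has 5 members: Ostn, Nppc, Npr1, Npr2 and Npr3. All 5 were found by symbol among the 23358 rows of the gene count table. They were chosen by function around Ostn, which was itself selected on its counts in these 6 RNA libraries, so the difference between treatments is given for members as a description, with no test. All groups grew in osteogenic medium, which held ascorbic acid plus beta glycerol phosphate. Cells received vehicle (DMSO) or 5 µM GSK126, an inhibitor of the methyltransferase EZH2, at the start and again on day 3, and the compound was withdrawn on day 6. For RNA, each treatment gave 1 library at each of 3 times, namely days 3, 6 and 10. H3K27me3, the histone mark that EZH2 writes, and input DNA were sequenced 24 hours after the first dose with 1 library of each kind per treatment. No culture stayed on the compound to day 10, so withdrawal and culture time cannot be told apart. All libraries came from 1 cell line, and bulk RNA does not separate fewer cells that express a gene from less RNA per cell.

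Natriuretic peptides signal through cell-surface receptors that carry a guanylyl cyclase. C-type natriuretic peptide, the product of Nppc, activates the receptor encoded by Npr2, which raises cyclic GMP and, through cGMP-dependent kinases, favours growth of cartilage and bone, partly by opposing the FGFR3 and MAP kinase cascade. Npr1 encodes the matching receptor for the cardiac peptides. Npr3 encodes a clearance receptor without a cyclase that takes natriuretic peptides out of the extracellular space. Osteocrin, also known as musclin, is a peptide secreted by bone and muscle that binds the clearance receptor and can thereby spare C-type natriuretic peptide.

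The promoters of 4 of the 5 members were found in the RefSeq table (GRCm38.p6), and 3 are shown because they differ in their distance to H3K27me3. The nearest called H3K27me3 regions lay 0.4, 2.7 and 109.0 kb from the windows of Nppc, Npr2 and Npr3 in vehicle. In GSK126 they lay 3.6, 3.1 and 115.8 kb away. Each sequence is the 250 bases that precede the annotated start, read 5′ to 3′ on the gene's strand. Capitals mark CG dinucleotides and, in Nppc, 1 TATAAA.

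Nppc promoter, chr1:86670574-86670823, minus strand: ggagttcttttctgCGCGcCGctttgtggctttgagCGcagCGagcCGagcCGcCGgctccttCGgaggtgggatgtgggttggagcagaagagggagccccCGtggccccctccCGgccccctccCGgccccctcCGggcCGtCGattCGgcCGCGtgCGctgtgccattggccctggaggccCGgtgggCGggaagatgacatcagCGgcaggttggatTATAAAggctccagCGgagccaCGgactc

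Npr2 promoter, chr4:43631685-43631934, plus strand: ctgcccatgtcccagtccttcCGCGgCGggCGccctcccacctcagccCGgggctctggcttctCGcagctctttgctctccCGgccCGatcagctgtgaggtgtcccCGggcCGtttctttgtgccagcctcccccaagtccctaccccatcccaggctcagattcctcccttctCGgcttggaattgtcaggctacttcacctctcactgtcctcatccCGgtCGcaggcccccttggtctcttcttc

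Npr3 promoter, chr15:11907372-11907621, minus strand: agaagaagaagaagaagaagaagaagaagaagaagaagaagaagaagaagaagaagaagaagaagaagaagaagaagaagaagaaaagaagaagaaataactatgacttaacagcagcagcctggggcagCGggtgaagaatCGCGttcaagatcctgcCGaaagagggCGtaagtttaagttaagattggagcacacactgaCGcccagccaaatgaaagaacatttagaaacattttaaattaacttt

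The Nppc window held 24 CG dinucleotides, a number reached or passed by 12% of 32817 promoter windows of that length. TATAAA, searched on both strands, began 29 bases before the Nppc start and was in none of the other 3 member windows. It occurred in 12.4% of all windows. The Npr1 window held 21 CG dinucleotides, that of Npr2 13 and that of Npr3 6, against a median of 6 over all windows. GC content was 69.2% for Nppc, 70.4% for Npr1, 64.4% for Npr2 and 38.8% for Npr3, whose window opens with a long repeat of aga. The RefSeq start of Npr3 lay 1697 bases outside the span in the count table, whereas the starts of the other 3 fell on the end of their span. These letters describe the windows and say nothing of which factor binds there.

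Total counts were 97291878 to 111537936 per RNA library, and every deposited count was even, so 1 sequenced fragment appears as 2 counts and intervals were computed on fragments. Such intervals cover counting error only. No library stood apart by total, and the ribosomal precursor Rn45s took between 4.37% and 7.47% of the counts, most on day 10. The labelled cell type was checked by its markers, and the 12 osteoblast and osteocyte genes summed to 25949 to 35108 counts scaled to library size (CPM) in vehicle and 29620 to 39919 with GSK126. Most of each sum was Col1a1 (2298308 to 3588796 counts), so the sum says little of the other markers. Runx2 had 22880 to 39952 counts and Sp7 11160 to 31184. Sost, a marker of mature osteocytes, had at most 2 counts in any library.

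Ostn, the ligand of the clearance receptor, was close to absent in vehicle and abundant in 1 condition. In vehicle its RPKM, reads scaled to coding length and library size, was 0 on day 3, 0.0723 on day 6 and 0 on day 10. In GSK126 it was 0.114, 25.7 and 5.85. The day 6 and day 10 GSK126 libraries were therefore high, and the day 3 GSK126 library was at the level of a few fragments (10). The ranges of the 2 treatments did not overlap, but that rests on those 10 fragments against 6 in vehicle on day 6. A vehicle library at 0 allows up to 3 fragments, which is 0.0335 RPKM on day 3 and 0.0391 on day 10. Against that limit for 1 library, and with the GSK126 count taken as exact, Ostn was 3.38-fold higher with GSK126 on day 3 and 156-fold higher on day 10. The lower limits of the exact binomial 95% interval, which count error in both libraries, were 2.27-fold and 126-fold. On day 6 it was 356-fold higher (exact binomial 95% interval 163 to 972, 2063 against 6 fragments). Only 8.87% of the rows of the table had a higher RPKM than Ostn in the GSK126 library of day 6, and 29.8% on day 10.

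Between those days, over which the compound was withdrawn, Ostn was 4.31-fold lower in GSK126 cells (interval 3.89 to 4.78). It was the rank 54 decrease among 11918 genes at 1 CPM or more in either library, so 0.445% of genes had a larger one. From day 3 to day 6 in GSK126 it had been 237-fold higher (interval 129 to 496). Even after the decrease it stood 55.1-fold above its day 3 level in GSK126 (interval 29.7 to 116). With 1 library per day these are differences between libraries, and no replicate measures their spread.

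**Figure D1:**
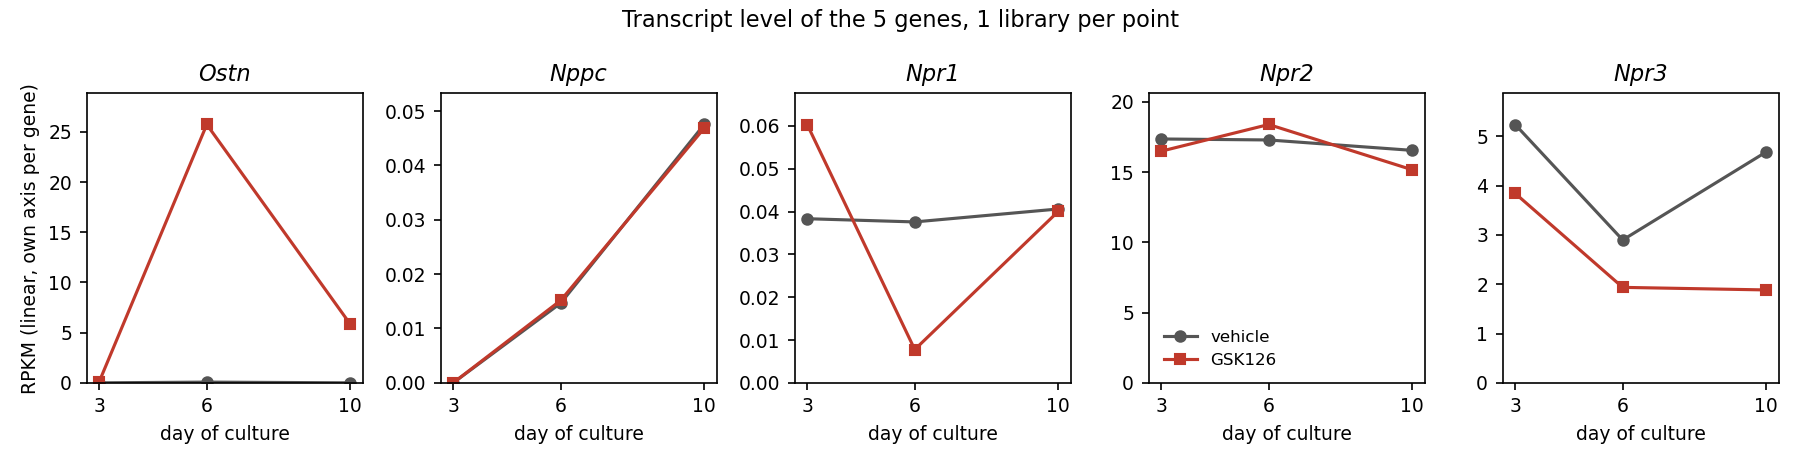
RPKM (vertical axis, linear from 0, scaled separately per gene) against day of culture for the 5 genes, 1 library per point, vehicle in grey circles and GSK126 in red squares. Ostn reached 25.7 in GSK126 on day 6, Npr2 stayed between 15.2 and 18.4, and Npr3 was lower with GSK126 on all 3 days.

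Npr3, the clearance receptor that osteocrin binds, differed in the opposite direction. Its RPKM was 5.24, 2.90 and 4.68 in vehicle on days 3, 6 and 10, and 3.84, 1.94 and 1.88 in GSK126. The GSK126 library was the lower one on each day, although the ranges over days overlapped. The log2 ratio of GSK126 to vehicle was -0.46 on day 3 (interval -0.54 to -0.37), -0.58 on day 6 (-0.71 to -0.45) and -1.25 on day 10 (-1.37 to -1.14). On day 10 that was 2.39-fold lower, and 1.32% of 11933 genes had a larger difference in that direction. The day 10 gap opened because the vehicle level was 1.58-fold higher on day 10 than on day 6 (interval 1.48 to 1.70), while in GSK126 the log2 ratio of day 10 to day 6 was -0.01 (interval -0.15 to 0.13). Both treatments had lower Npr3 on day 6 than on day 3, by 1.73-fold in vehicle and 1.89-fold in GSK126.

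Npr2, the cyclase receptor for C-type natriuretic peptide, was steady. Its RPKM was 17.3, 17.3 and 16.5 in vehicle and 16.5, 18.4 and 15.2 in GSK126. The groups overlapped, and the highest and lowest libraries were both GSK126 ones. The log2 ratios were -0.08, 0.09 and -0.07 on days 3, 6 and 10, with counting intervals no wider than -0.14 to 0.15 over the 3 days. A larger difference between these pairs of libraries lies outside counting error, but the spread between cultures was not measured.

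Npr1, the receptor for the cardiac peptides, was barely detected. It had 22, 20 and 20 counts in vehicle and 34, 4 and 20 in GSK126, or 0.00778 to 0.0604 RPKM. The 4 counts on day 6 are 2 fragments, under the limit that a count of 0 allows (3 fragments), and the ratio to vehicle was 0.207 (interval 0.0221 to 0.972). On days 3 and 10 the intervals, 0.692 to 3.70 and 0.384 to 2.75, included equal levels. Nppc, the ligand of Npr2, had 0, 2 and 6 counts on days 3, 6 and 10 in vehicle and the same 0, 2 and 6 in GSK126. All 6 libraries were thus at or under 3 fragments and no ratio is given. Of the members at 1 CPM or more in either library of a day (2 on day 3 and 3 on days 6 and 10), Ostn was at least 2-fold higher on day 6 and on day 10, and Npr3 was at least 2-fold lower on day 10. Over all genes at 1 CPM or more, the share at least 2-fold higher was 1.51% on day 3, 4.15% on day 6 and 3.07% on day 10, and the share at least 2-fold lower was 0.162%, 2.06% and 2.44%. Nothing is read from these counts, since the members were picked with this contrast known.

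**Figure D2:**
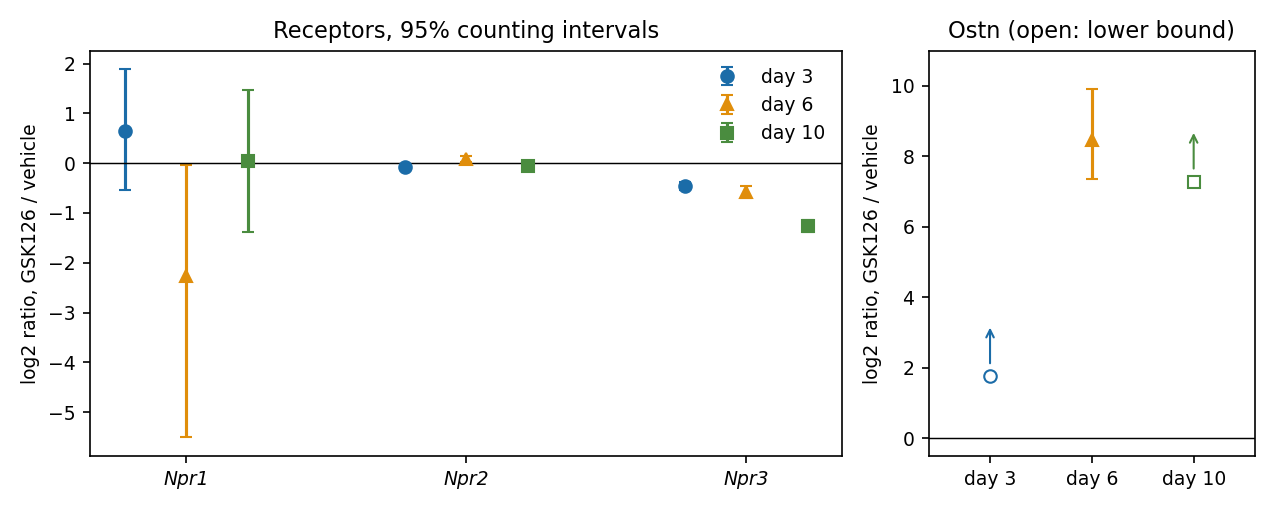
Log2 ratio of GSK126 to vehicle by day, with exact binomial 95% intervals on fragments (counting error only), for the receptors on the left and Ostn on the right. Open symbols with arrows set the GSK126 count, taken as exact, over the 3 fragments that a vehicle library at 0 allows (1.76 on day 3 and 7.29 on day 10). The exact interval had lower limits of 1.18 and 6.98. Npr2 lies near 0, and Npr3 is at -1.25 on day 10.

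Per length, the place of Ostn among the members depended on the condition. Npr2 exceeded Npr3 in all 6 libraries, by 3.31-fold in vehicle on day 3 and by up to 9.49-fold in GSK126 on day 6, and their ranges (15.2 to 18.4 against 1.88 to 5.24 RPKM) did not overlap. In GSK126 on day 6 the RPKM of Ostn exceeded that of Npr2 1.40-fold and Npr3 13.3-fold, and on day 10 it stood between them at 0.386 of Npr2 and 3.11-fold above Npr3. In the other 4 libraries Ostn, like Npr1 and Nppc, had few fragments and stayed far below Npr3. In GSK126 on day 3 its 0.114 RPKM lay above the 0.0416 that 3 fragments of Nppc, which had none, would give.

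Change over culture time was tested in the receptors, which were chosen by function around Ostn, though with earlier results of these data known. The test was edgeR's quasi-likelihood test, fitted to 14344 genes with Benjamini-Hochberg adjustment. Of the 5 members, Nppc did not pass the filter on low counts and Ostn was not tested, which leaves 3. No receptor was called between days 3 and 6 or between days 3 and 10, and 1 of the 3 (Npr3) had an unadjusted p under 0.05 in each contrast, as had 26.2% of all genes on day 6 and 42.7% on day 10. Of all genes, 0.516% were called higher and 0.237% lower on day 6, and 14.1% higher and 12.5% lower on day 10. Relative to day 3, Npr3 stood at -0.86 in log2 on day 6 (SE 0.21, edgeR adjusted p = 0.112) and -0.51 on day 10 (SE 0.21, edgeR adjusted p = 0.117). DESeq2 called the day 6 difference of Npr3 (-0.86, adjusted p = 0.005) and not that of day 10 (adjusted p = 0.0799). Npr2 had 0.14 on day 6 (SE 0.09, edgeR adjusted p = 0.34) and -0.03 on day 10 (SE 0.09, edgeR adjusted p = 0.831). Npr1, at its low counts, had -1.11 (SE 0.74, edgeR adjusted p = 0.382) and -0.24 (SE 0.69, edgeR adjusted p = 0.814). The day terms average over both treatments, so for Npr3 they combine a vehicle course that returned toward its day 3 level with a GSK126 course that did not.

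The rest of the pathway was read from a list of 26 genes, all in the table, of which 17 passed the filter. With GSK126, 1 rose and 0 fell (edgeR adjusted p under 0.05), against 1.01% and 0.272% of all genes tested. The gene that rose was Pde1b, a calcium-dependent phosphodiesterase that breaks down cyclic nucleotides, with 242, 300 and 354 counts in vehicle and 646, 1000 and 1168 in GSK126. All 3 GSK126 libraries lay above all 3 vehicle libraries, with a fitted log2 difference of 1.66 (SE 0.14, 3.17-fold, n = 3 pairs, edgeR adjusted p = 0.0197). The call was lost without day 6 (edgeR adjusted p = 0.1) and without day 10 (edgeR adjusted p = 0.0957), at differences of 1.60 and 1.61. The list had 8 positive and 9 negative differences and a median of -0.03, beside -0.001 over all genes.

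Other phosphodiesterases and a kinase substrate had large differences that did not pass. Pde5a, the cGMP-specific phosphodiesterase, had 74, 82 and 58 counts in vehicle and 132, 208 and 142 in GSK126, and its fitted difference was 1.19 on the log2 scale (SE 0.23, edgeR adjusted p = 0.0766). Pde1a stood at 1.13 (SE 0.23, edgeR adjusted p = 0.0838) and Mrvi1, a substrate of cGMP-dependent kinase, at 0.98 (SE 0.24, edgeR adjusted p = 0.117). Pde3a stood at -0.62 (SE 0.29, edgeR adjusted p = 0.327). DESeq2 called the first 3 of these higher. The most abundant gene of the list by counts was Mme, the peptidase neprilysin that degrades natriuretic peptides, with 36102 to 58590 counts. The cardiac peptides were near the limit of detection, with 10 to 32 counts for Nppa and 0 to 14 for Nppb. Soluble guanylyl cyclase, a separate source of cGMP, had few counts, with 16 to 34 for Gucy1a2, at most 6 for Gucy1a3 and 0 in all 6 libraries for Gucy1b3. Corin, a protease that activates the cardiac peptide precursor, had 572 counts in vehicle on day 6 and at most 6 in the other 5 libraries.

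**Figure D3:**
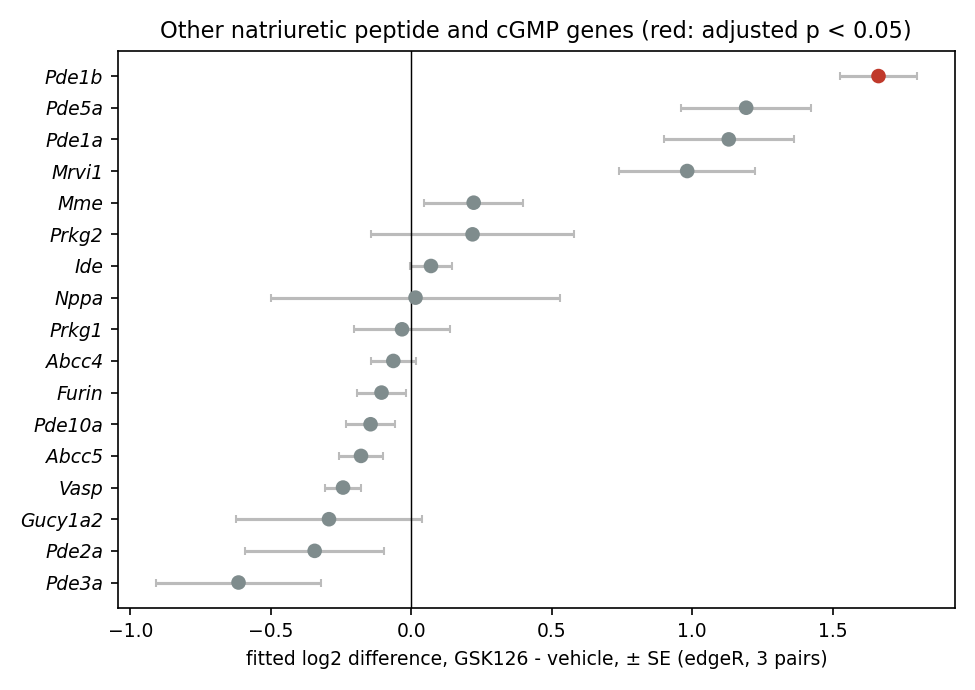
Fitted log2 difference between GSK126 and vehicle (horizontal axis, bars are SE over 3 pairs of libraries) for the 17 tested genes of the natriuretic peptide and cGMP list. Pde1b, in red at 1.66, is the gene with an edgeR adjusted p under 0.05, followed by Pde5a, Pde1a and Mrvi1, which did not pass.

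Over culture time, 1 gene of the same list rose and 4 fell between days 3 and 10, and 12 were not called, where 14.1% of all genes rose and 12.5% fell, with a list median of -0.22 beside -0.01 over all genes. Pde1b rose by 0.97 (SE 0.16, edgeR adjusted p = 0.0173). The falls were in Pde2a, a cGMP-stimulated phosphodiesterase, by 1.57 (SE 0.30), the cytoskeletal kinase substrate Vasp by 0.63 (SE 0.08), the nucleotide exporter Abcc4 by 0.53 (SE 0.10) and Pde10a by 0.50 (SE 0.10), with edgeR adjusted p from 0.0123 to 0.027. Between days 3 and 6, 0 of the 17 were called by edgeR, 4 had an unadjusted p under 0.05 (26.2% of all genes did), and DESeq2 called 1 higher and 1 lower. Both cGMP-dependent kinases were present, and neither was called in any of the 3 comparisons. Prkg2, the kinase that acts in the growth plate, had 834, 742 and 750 counts in vehicle and 806, 1742 and 482 in GSK126. Only its GSK126 library of day 6 stood high, the same library in which Ostn peaked.

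Among 6 genes of the FGFR3 and MAP kinase arm, edgeR called 0 with GSK126, where 3 had an unadjusted p under 0.05 (19.6% of all genes did) and DESeq2 called 1 higher and 1 lower. Fgfr3 had 3676, 4072 and 6006 counts in vehicle and 5380, 5058 and 10990 in GSK126 on days 3, 6 and 10, and a fitted difference of 0.61 on the log2 scale (SE 0.12, edgeR adjusted p = 0.0722). It rose between days 3 and 10 by 1.14 (SE 0.14, edgeR adjusted p = 0.0122). Map2k1, a kinase of the cascade, rose by 0.34 (SE 0.09, edgeR adjusted p = 0.0471), a call lost without day 6 (adjusted p = 0.0612), without the filter (adjusted p = 0.0608) and with library size as the only scaling (adjusted p = 0.0829). With GSK126, Mapk3 stood at -0.36 and Map2k1 at -0.23, neither of which passed.

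Of 9 factors that have been linked to Ostn transcription in other tissues, or to the proteins that act on it, 1 rose with GSK126 and 0 fell, against 1.01% and 0.272% of all genes tested. An unadjusted p under 0.05 was found for 4 of the 9 (19.6% of all genes), and DESeq2 called 3 higher and 0 lower. Mef2c, a MADS-box transcription factor of muscle and bone, had 5014, 6346 and 5946 counts in vehicle and 10092, 20258 and 20804 in GSK126. Each GSK126 library exceeded every vehicle library, with a fitted log2 difference of 1.53 (SE 0.17, 2.90-fold, n = 3 pairs, edgeR adjusted p = 0.03). Without day 6 the difference was 1.43 (edgeR adjusted p = 0.121) and without day 10 it was 1.38 (edgeR adjusted p = 0.138). Unlike Ostn, Mef2c was as high on day 10 as on day 6 in GSK126. Foxo1, a forkhead factor, stood at 0.56 (SE 0.12, edgeR adjusted p = 0.0902) and Mef2d at 0.52 (SE 0.13, edgeR adjusted p = 0.116). The class II deacetylases, which bind MEF2 proteins, stood at 0.24 for Hdac5 and -0.23 for Hdac4. Between days 3 and 10, Mef2c rose by 0.90 (SE 0.21, edgeR adjusted p = 0.0321), while Hdac4 fell by 0.84 (SE 0.12, edgeR adjusted p = 0.0145) and Foxo3 fell by 0.43 (SE 0.10, edgeR adjusted p = 0.0317).

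The genes whose pattern was most like that of Ostn were found by Pearson's r of log2 CPM over the 6 libraries, among 2538 genes with a range of at least 1. They were 4933430I17Rik (r = 0.987), the formin Fhod3 (0.986), Myom1, which encodes a protein of the sarcomeric M band (0.985), the inositol phosphatase Inpp5a (0.985), Dab2ip (0.984) and the kinase Oxsr1 (0.977). Myom1 had 1454, 2528 and 1886 counts in vehicle and 3494, 11702 and 8964 in GSK126, so it too peaked on day 6 in both treatments, from a far higher base. For Npr3 the closest were Id4, an inhibitor of helix-loop-helix factors (r = 0.997), Arxes2 (0.979) and the tight-junction gene Cldn1 (0.978). Id4 had 4860, 2032 and 3406 counts in vehicle and 2964, 980 and 876 in GSK126, with the same low day 6 and the same absent return in GSK126. Npr2 was most like Timp3 (0.975), Hmox1 (0.971) and Akna (0.956), and Npr1, at its few counts, like Ifit2 (0.966), Slfn8 (0.955) and 4930579G24Rik (0.914). Pearson's r takes no account of the size of a change. Npr2 had 6814 to 8952 counts, whereas Timp3 had 18262 to 91052. Over 6 libraries that share days and treatments, a high r was not unique to the genes named. Among the 2538 genes compared, 104 had r above 0.9 with Ostn, 15 with Npr2 and 6 with Npr1. For Npr3 it was 50 of 2537.

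**Figure D4:**
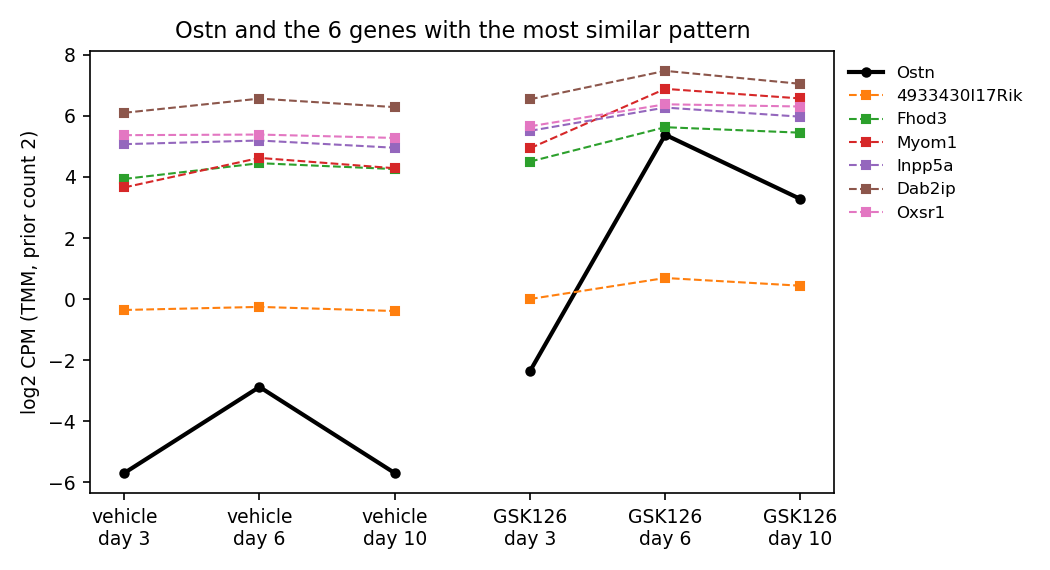
Log2 CPM (vertical axis, TMM-normalized, prior count 2) in the 6 libraries for Ostn (black) and the 6 genes of most similar pattern (dashed). All 7 are highest in GSK126 on day 6, and the range of Ostn is far wider than that of the others.

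H3K27me3 islands, broad regions called by the authors with SICER on 1 ChIP library against its own input, were read within 5 kb of each gene span. The authors' lists held 34498 islands in vehicle (median width 3400 bases) and 24947 in GSK126 (5600 bases), which covered 147.9 Mb and 166.7 Mb. Of the 5 members, 4 had an island in vehicle (Ostn, Nppc, Npr1 and Npr2), where 25.9% of all genes did, and 2 had one in GSK126 (Nppc and Npr2), where 22% did. Ostn and Npr1 had an island in vehicle alone, as did 7.69% of all genes. With the gene span alone, 2 members (Ostn and Nppc) had one in vehicle and 1 (Nppc) in GSK126. With 1 list per treatment there is no replicate check. Of all vehicle islands, 39.6% had no overlapping island in GSK126, and 31.1% of GSK126 islands had none in vehicle. The fold enrichments below are the authors' own, ChIP over input, with coordinates as the files give them in mm10.

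Ostn (chr16:27307641-27351209) carried 2 short islands in vehicle, both toward the higher-coordinate end of the gene. The first, chr16:27344400-27345999, had 23 ChIP and 16 input reads (2.42-fold), and the second, chr16:27347600-27350199, had 29 and 17 reads (2.87-fold). These are modest folds, near the median of the vehicle list (2.48). Another island, 7.2 kb past that end at chr16:27358400-27360399, lay within the adjacent gene Uts2d and had 34 ChIP against 3 input reads (19.0-fold), a fold that 0.0725% of vehicle islands exceeded. None of the 3 had a counterpart in GSK126, where the nearest island began 17.8 kb past the gene. Those islands were measured at 24 hours, when no RNA was taken. On day 3 Ostn was still at 10 fragments in GSK126.

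Nppc (chr1:86666293-86670573), which stayed at the detection limit in both treatments, was the only member with an island over its span in both lists. In vehicle an island of 13.4 kb covered 3907 bases of the gene (2.78-fold, 215 ChIP and 130 input reads), and another lay 0.6 kb upstream of its start. The 250 promoter bases printed above fell in the 1000-base gap between these 2 islands. In GSK126 the overlapping island was 10.4 kb wide (2.27-fold), covered 707 bases of the gene and ended 3.6 kb from the promoter window. Npr1 (chr3:90450592-90465866) had 1 vehicle island of 1.8 kb, 3.1 kb upstream of its promoter window (4.74-fold, 31 ChIP and 11 input reads), and its nearest GSK126 island was 94.3 kb away.

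Npr2 (chr4:43631935-43651240), the steadily expressed receptor, had no island over its span but a wide one upstream in both treatments. That island was 15.0 kb wide in vehicle (3.24-fold) and 15.4 kb in GSK126 (2.31-fold), and it ended 2.7 kb and 3.1 kb before the promoter window. Npr3 (chr15:11839897-11905674), the member that was lower with GSK126, had no island nearby: the nearest was 110.9 kb from its span in vehicle and 117.7 kb in GSK126. Among the 26 genes of the pathway list, 14 had an island in vehicle and 11 in GSK126, where 25.9% and 22% of all genes did. Gene length was not taken into account. In vehicle alone, 4 of the 26 had an island, beside 7.69% of all genes. Pde1b, the gene of that list that rose, had one in both treatments.

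**Figure D5:**
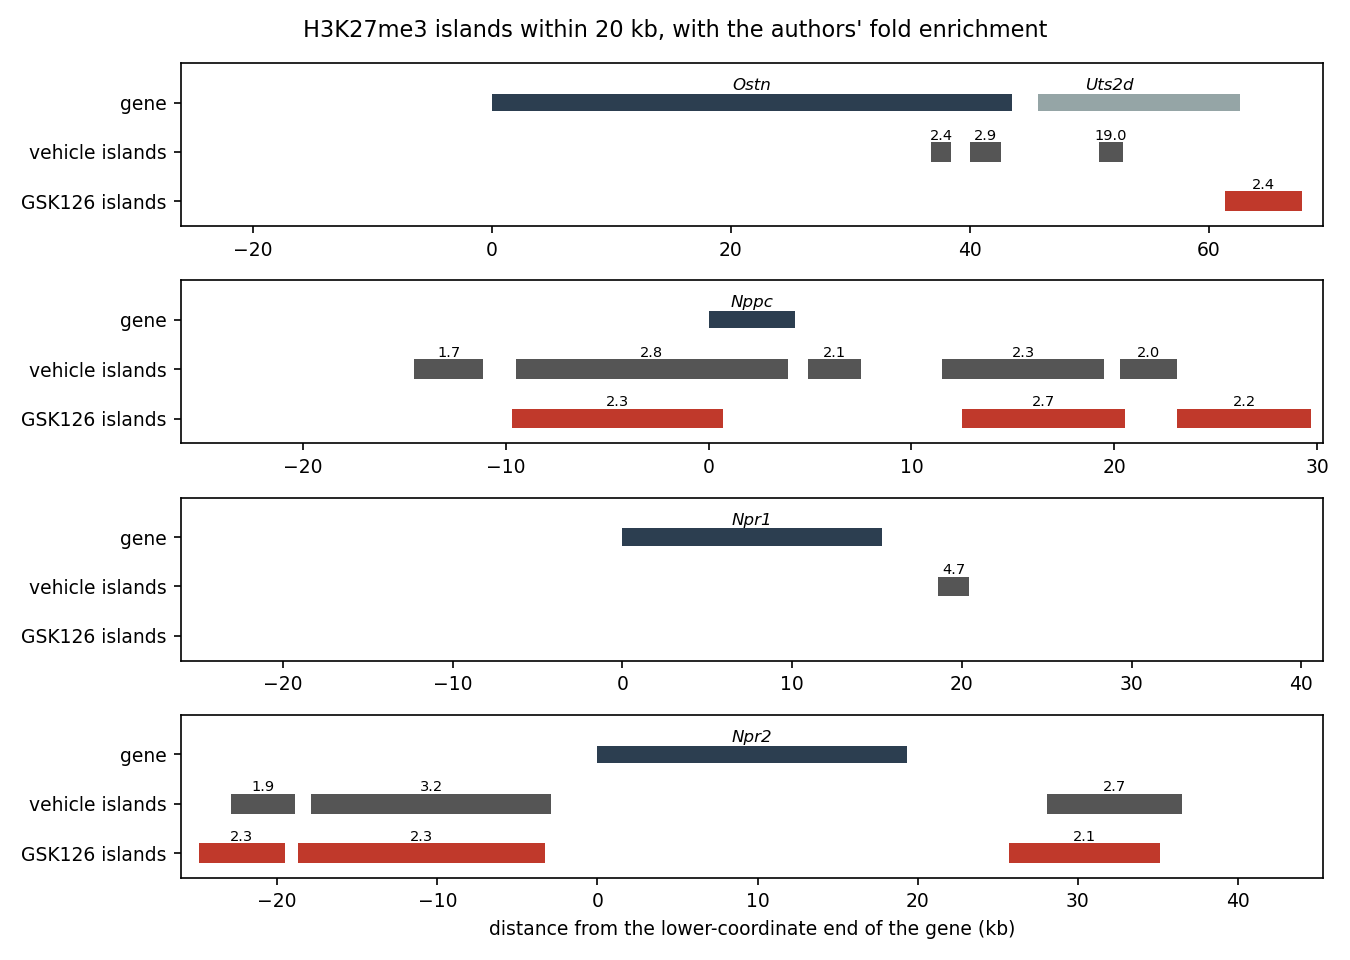
Gene spans (top bar) and H3K27me3 islands in vehicle (grey) and GSK126 (red) within 20 kb of Ostn, Nppc, Npr1 and Npr2, by distance in kb from the lower-coordinate end of the gene, each island with the authors' fold enrichment. The 3 vehicle islands at and beside Ostn have no GSK126 counterpart, whereas the wide islands at Nppc and Npr2 are in both lists, and Npr3 is not drawn because it had none.

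The neighbours of Ostn on chromosome 16 did not share its level, although the nearest, Uts2d, was likewise highest in the GSK126 library of day 6. Uts2d, 2.1 kb past the higher-coordinate end of Ostn and the host of the 19.0-fold island, encodes a urotensin-like peptide and had 0 counts in all 3 vehicle libraries and in GSK126 on day 3, then 24 by day 6 of GSK126 and 2 by day 10. Its day 6 level was 4.14-fold higher with GSK126, against the limit of 3 fragments in the vehicle library and with the GSK126 count taken as exact. The GSK126 island nearest to Ostn, chr16:27369000-27375399 (2.44-fold), covered 1240 bases at the far end of Uts2d, so Uts2d was not free of islands in GSK126. Ccdc50, 37.8 kb away, was expressed in every library (13698 to 19900 counts), with log2 ratios of 0.27, 0.25 and 0.21. On the other side Gm606 had 0 counts throughout at a distance of 317.7 kb, Il1rap, a subunit of the interleukin-1 receptor, had ratios of 0.71, 0.41 and 0.52, and Tmem207 had 0 counts, as did Gm10823 beyond Ccdc50. The annotation in the table does not separate exons, so reads from a transcript running from Ostn into Uts2d could not be told from reads of Uts2d itself.

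Since Ostn is also a muscle gene, markers of other cells are given beside it. The 8 skeletal muscle markers summed to 2.93 to 5.18 CPM in vehicle and 4.56 to 6.12 in GSK126, with Myod1 and Myf5 at 0 in all 6 libraries and Myog at most at 8 counts. Most of each sum came from 2 of these markers, Des (242 to 454 counts, higher with GSK126 on each day) and Acta1 (20 to 274 counts). Of the 3 muscle markers that were tested, 0 were called with GSK126. Markers of endothelium summed to 0.710 to 2.15 and 1.00 to 4.92 CPM, with Kdr at 0. Most of that was Vwf, with 62, 82 and 196 counts in vehicle and 78, 222 and 448 in GSK126. Of the 2 endothelial genes tested, edgeR called 0 with GSK126 and DESeq2 called 1 higher. Adipocyte markers summed to 0.121 to 0.227 and 0.233 to 0.646 CPM, and cardiomyocyte markers to 0.165 to 0.346 and 0.141 to 0.298 (Myh6 at 0). The 6 chondrocyte markers summed to 85.5 to 245 CPM in vehicle and 136 to 598 in GSK126 with Acan at 0. Col2a1 (5682 to 63954 counts) made up most of each sum. Of the 5 tested edgeR called 0 with GSK126, while all 5 had an unadjusted p under 0.05 (19.6% of all genes did) and DESeq2 called 3 higher. Their fitted differences were positive for 4 and negative for 1, Sox9 (-0.235). Col9a1, a collagen of cartilage, had 12, 10 and 6 counts in vehicle and 70, 760 and 362 in GSK126 (33.4-fold, edgeR adjusted p = 0.0504), so it was highest in the library where Ostn peaked. The other tested chondrocyte markers were not. Col2a1 (63954 counts) and Matn3 (286) were highest in GSK126 on day 3. Col10a1 (372) was highest in GSK126 on day 10 and Sox9 (4214) in vehicle on day 3. The 4 neuronal markers summed to 5.85 to 23.2 and 13.2 to 110 CPM, nearly all of it Tubb3, which rose by 1.76 (SE 0.21, edgeR adjusted p = 0.0333). Of the 11 tested osteoblast and osteocyte markers 3 rose with GSK126 (Bglap, Ibsp and Ifitm5) and 0 fell, against 1.01% and 0.272% of all genes tested. All 11 differences were positive, where 49.8% of all genes had a positive one. DESeq2 called 7 of these markers higher and 0 lower, where it called 688 and 635 of 14344 genes. Ibsp, bone sialoprotein, reached 195424 counts by day 6 in GSK126 and 327082 by day 10, and Ifitm5 5082 and 11186, so these markers were higher on day 10 where Ostn was lower. Dmp1, a gene of early osteocytes, had 1858 counts in the day 6 GSK126 library and 578 in that of day 10, and 1164 and 660 in vehicle. The part of any such change in cell make-up in the levels of Ostn and Npr3 was not tested.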

How the data were processed

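RNA libraries were prepared with the TruSeq v2 mRNA protocol, per the labels' protocols, a kit that does not mark strand. The submitters' processing notes name CASAVA 1.9, TopHat2 2.0.6, HTSeq 0.5.3p9, BWA 0.5.9, SICER 1.1 and mm10. Counting mode, annotation release and SICER settings were not given in the sources used here. What the authors deposited were whole-number counts per gene without normalization, and RPKM values, which were found to be counts over coding length and a library total larger than the summed counts. The island lists, in SICER's layout and without headers, hold ChIP and input counts, a p-value, a fold (ratio of ChIP to input) and an adjusted p-value as the authors' caller gave them. Of the islands, 0.954% (vehicle) and 1.12% (GSK126) had an adjusted p of 0.05 or more. An island counted for a gene with 1 shared base within 5 kb of its span.

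Counts were tested across all genes with edgeR 4.0.16 (R 4.3.3). The quasi-likelihood test used TMM scaling, filterByExpr on treatment and an additive model of treatment and day, and calls had a Benjamini-Hochberg adjusted p under 0.05. The fit leaves 2 residual degrees of freedom, which measure how the treatment difference varies between days. SE is the difference divided by the square root of F. The labels name no separate cultures, so a p-value reflects spread among these libraries alone, part of which may be technical. That spread also holds any change of the treatment difference between days, withdrawal included. The 3 pairs are the 3 days, not replicates of a day. DESeq2 1.42.0 was an alternative. Ratios on 1 day used TMM-scaled sizes, and ranks among genes a prior count of 2. The scripts were tested on simulated data. Named were the members, list genes called in a contrast, up to 4 more per list with the largest GSK126 difference, the 3 nearest genes on each side of Ostn, and the genes of most similar pattern. Mme, the kinases, Corin, the cardiac peptides, soluble cyclases and single markers were named after their values were seen. The members and lists were chosen with earlier results of these data known. Where a symbol was renamed, the older one in the table was used. The value of 1 list gene is not reported here.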

Additional observations from a re-analysis of the deposited data

Results flagged for a closer look

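Of the 52 genes with daily ratios (members, list genes and neighbours of Ostn), 7 had a ratio of GSK126 to vehicle in opposite directions on different days, with counting intervals on either side of equality. Whether the days differ was not tested, since each day has 1 library per treatment. The values are log2 ratios of counts, and 3 of these genes (Furin, Mef2a and Vdr) were named after their values were seen. Npr2 stood at -0.082 on day 3 and 0.091 on day 6. Mme, neprilysin, stood at 0.717 on day 3, at 0.136 on day 6 and at -0.184 after withdrawal, on day 10. The kinase gene Prkg1 stood at 0.371 on day 3 and -0.352 on day 10. Prkg2 stood at 1.282 on day 6 and -0.600 on day 10, and within GSK126 cells it was 3.44-fold lower on day 10 than on day 6 (interval 2.98 to 3.99), next to 4.31-fold for Ostn. Furin, a protease that processes peptide precursors, stood at -0.182 on day 3, -0.233 on day 6 and 0.097 on day 10. Mef2a stood at 0.099, 0.066 and -0.158 on the 3 days. Vdr, the vitamin D receptor, stood at -0.480 on day 3 and 0.318 on day 10.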

How the results depend on the processing

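DESeq2 called more genes with GSK126, 688 higher and 635 lower in place of 145 and 39, and moved the calls for day 6 further, to 984 and 729 in place of 74 and 34. Without the filter 63 were lower with GSK126 and 52 lower on day 6, and with library size alone 74 were lower on day 6. Leaving out 1 day gave 4 (without day 10) to 202 (without day 3) higher and 0 (without day 10) to 106 (without day 3) lower with GSK126, and 19 lower on day 6 without day 10. Library size alone moved the median of all genes to -0.10 for day 6 and -0.11 for day 10, and lowered the higher share of calls from 68.5% to 50.7% and from 53.1% to 35.9%. DESeq2 put the share for GSK126 at 52.0% in place of 78.8%, and for day 6 at 57.4%. In the natriuretic peptide and cGMP list, DESeq2 called 4 genes higher with GSK126 in place of 1, and 1 higher and 1 lower on day 6 in place of 0, while leaving out 1 day gave 0 to 1 higher with GSK126. With the gene span alone 3976 genes had an island in vehicle in place of 6039, with 2 members in vehicle and 1 in GSK126. The order of the members per length was the same in 6 of 6 libraries with counts per kilobase scaled by TMM. The cause of these shifts was not tested. Depth limits Npr1, Nppc and vehicle Ostn, which lie within a few fragments of 0, and the prior count moves the log2 difference of Ostn on day 10 from 7.54 to 10.85. No direction of a called value reversed in the alternatives run.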
